A study of Homo sapiens with 21 samples.

Results

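The genes described here are 10 genes of the circadian clock's negative and output arms: the period genes PER1, PER2 and PER3, the cryptochromes CRY1 and CRY2, the nuclear receptors NR1D1 and NR1D2, the bZIP factors DBP and TEF, and the basic helix-loop-helix repressor BHLHE41. They form a list of gene names, drawn up with earlier results of these data known, and all 10 were found by symbol among the 65065 genes of the count table. They were measured by poly(A) RNA sequencing in HCT-116, a human colorectal carcinoma line of epithelial origin. Cultures were kept in DMEM with exosome-depleted serum. They received extracellular vesicles, small membrane-bound particles shed by cells, that had been captured from human serum by the GlyExo-Capture method. HCC+ vesicles came from the serum of patients with hepatocellular carcinoma and HCC- vesicles from that of healthy people, each given at 1.2, 0.24 or 0.048 mg/mL, and blank cultures were the controls. Each of the 7 groups has 3 libraries, 21 in all. The labels do not say whether the libraries of a group are separate cultures or how many serum donors stand behind a vesicle preparation, so the p-values measure the spread between these libraries, which may be technical. They also give no length of treatment and no hour of collection, so a shift in clock phase and a change in mean level cannot be told apart. In bulk RNA, fewer cells with a transcript and less of it per cell cannot be told apart either.

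The circadian clock of mammalian cells is a transcriptional feedback loop. CLOCK and BMAL1 bind E-boxes and switch on the PER and CRY genes, whose proteins return to the nucleus and repress CLOCK and BMAL1. A second loop runs through NR1D1 and NR1D2 (REV-ERB alpha and beta), E-box targets that repress BMAL1. DBP and TEF, activators that bind D-boxes, carry the rhythm on to output genes, and BHLHE41 (DEC2) competes for E-boxes as a repressor. PER1 in particular is also induced outside the loop, by CREB and by glucocorticoid receptor. In cultured lines the loop runs in single cells, and these drift out of phase unless a stimulus such as a serum change aligns them.

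Promoter sequences are shown for the pairs PER1 and PER2 and NR1D1 and NR1D2, because the members of each pair changed differently in the comparisons below. They are RefSeq windows of GRCh38.p14, from 250 bases before to 50 bases after an annotated transcription start, read 5' to 3' along the gene. The windows are chr17:8152355-8152654 (minus strand) for PER1, chr2:238288561-238288860 (minus strand) for PER2, chr17:40100540-40100839 (minus strand) for NR1D1 and chr3:23945871-23946170 (plus strand) for the downstream start of NR1D2. Capitals mark the E-box CACGTG, the noncanonical E-box CACGTT and the D-box TTATGTAA on either strand.
PER1: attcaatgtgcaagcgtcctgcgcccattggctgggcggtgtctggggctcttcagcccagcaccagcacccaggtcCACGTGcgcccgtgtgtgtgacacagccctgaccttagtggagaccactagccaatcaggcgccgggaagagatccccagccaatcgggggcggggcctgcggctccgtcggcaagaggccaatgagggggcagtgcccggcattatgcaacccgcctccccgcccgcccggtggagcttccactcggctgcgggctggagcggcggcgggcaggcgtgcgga
PER2: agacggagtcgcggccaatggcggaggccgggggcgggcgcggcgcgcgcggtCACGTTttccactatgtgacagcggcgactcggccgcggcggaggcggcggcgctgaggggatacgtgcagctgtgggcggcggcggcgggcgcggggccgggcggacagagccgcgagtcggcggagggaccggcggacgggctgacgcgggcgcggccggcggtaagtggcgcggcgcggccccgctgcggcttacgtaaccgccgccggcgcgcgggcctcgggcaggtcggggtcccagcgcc
NR1D1: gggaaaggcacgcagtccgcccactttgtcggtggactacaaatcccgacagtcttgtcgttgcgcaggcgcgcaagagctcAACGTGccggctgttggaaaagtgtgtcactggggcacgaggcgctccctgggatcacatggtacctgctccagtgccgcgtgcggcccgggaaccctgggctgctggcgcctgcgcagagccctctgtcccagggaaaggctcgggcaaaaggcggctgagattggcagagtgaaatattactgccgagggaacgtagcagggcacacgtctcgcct
NR1D2: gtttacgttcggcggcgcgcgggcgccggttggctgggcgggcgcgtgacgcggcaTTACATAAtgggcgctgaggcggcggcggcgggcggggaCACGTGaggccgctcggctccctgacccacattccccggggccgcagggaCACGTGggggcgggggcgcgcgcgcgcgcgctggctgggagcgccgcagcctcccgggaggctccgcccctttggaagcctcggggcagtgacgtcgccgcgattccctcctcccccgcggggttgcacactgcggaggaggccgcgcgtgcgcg
The PER1 window holds 1 E-box, at -173 from the start, and the PER2 window holds none but has a noncanonical E-box at -197. The NR1D1 window likewise has no E-box and 1 noncanonical E-box, at -168 on the reverse strand. The downstream NR1D2 window has E-boxes at -155 and -105 and a D-box at -194, and the upstream NR1D2 window, not shown, has neither motif. Over the members' windows, with a pair of windows each for PER3, CRY2, NR1D2 and TEF, an E-box was found in 4 of 10 genes (PER1, NR1D2, TEF and BHLHE41). It occurs in 7.26% of the 35116 RefSeq windows of the same length. For every motif the members are counted by gene and the background by window. A gene with a pair of windows counts if either holds the motif, which raises the members' share. The noncanonical E-box, added to the search after the first motifs had been counted, was found in 4 of 10 genes (PER2, CRY1, CRY2 and NR1D1) against 5.34% of all windows. A D-box was found in PER3 and NR1D2, against 0.89% of all windows. The full CRE TGACGTCA, which CREB binds, was found in 0 of 10 genes and 1.85% of all windows. Its half-site TGACG, which lies within the full CRE, was found in 4 of 10 genes against 24.55% of all windows, and the ROR element core AGGTCA in 2 of 10 against 13.83%. The DBP window holds none of these motifs. These matches are descriptions of letters in a short window, not binding sites.

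The libraries held 31219343 to 64012757 counts. All 10 members passed the filter on low counts, which left 19556 genes for testing. In a principal component analysis the first component, 34.6% of the variance, set the 6 libraries at 1.2 mg/mL (-87.6 to -25.5) apart from the other 15 (12.3 to 31.6). So any group of genes changes against a broad background at 1.2 mg/mL: 33% of tested genes were called between HCC+ and blank and 53.3% between HCC- and blank. A call is a Benjamini-Hochberg adjusted p under 0.05 in edgeR's quasi-likelihood F test over all tested genes. The split of these calls moves with the scaling. Against blank, HCC+ had 3046 genes up and 3398 down with TMM factors and 4657 up and 2069 down when scaled to total counts alone, where the median gene moves from 0.013 to 0.133 on the log2 scale. HCC- had 4844 up and 5574 down with TMM factors against 8128 and 3097 with total counts, where the median moves from 0.051 to 0.332, and 6244 and 4781 with GC content and length trends removed. HCC+ against HCC- at 1.2 mg/mL had 4411 higher and 2490 lower with TMM factors, 2342 and 4572 with total counts, and 3660 and 4149 with GC content and length trends removed. The epithelial markers fixed for HCT-116, among them EPCAM, CDH1 and KRT8, each had counts in every group. Their summed level was 3286 to 4950 CPM, read counts relative to a TMM-corrected library total, over the 21 libraries. VIL1 was poorly measured, with standard errors of 1.05 to 1.71 on the log2 scale. The sum was 3675 to 4473 CPM in blank and 3286 to 3557 with HCC- at 1.2 mg/mL. In the comparison of that group with blank, EPCAM (-0.31), KRT8 (-0.27) and KRT18 (-0.46) were called down and CDX2 (0.32) up, on the log2 scale. These sums and calls use TMM factors, and total counts move the median gene of this comparison from 0.051 to 0.332.

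In untreated cells the members covered a wide range of levels. Per kilobase of exon, which is the scale for comparing genes, NR1D2 (9.74 ± 1.37 CPM per kb, SD, n = 3), NR1D1 (9.34 ± 1.24) and PER1 (9.30 ± 0.983) were highest in blank cultures and did not differ beyond their spread. CRY1 (6.55 ± 0.744 CPM per kb) and TEF (5.84 ± 0.101) followed, within the spread of each other. PER2 stood at 3.50 ± 0.368, CRY2 at 2.86 ± 0.324 and DBP at 1.57 ± 0.0932 CPM per kb. BHLHE41 (0.552 ± 0.270) and PER3 (0.546 ± 0.0866) were the lowest and did not differ beyond their spread. At 1.2 mg/mL of HCC- vesicles NR1D1 (18.4 ± 2.72 CPM per kb) and PER1 (15.0 ± 1.14) stood above every other member, and NR1D2 (7.82 ± 1.11) was level with CRY1 (7.38 ± 0.0430). At the same dose of HCC+ vesicles PER1 (11.2 ± 0.409), NR1D1 (11.1 ± 0.988) and NR1D2 (9.54 ± 0.426) still led, and PER2 was at 2.08 ± 0.0523, below CRY2 at 2.71 ± 0.299.

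**Figure D1:**
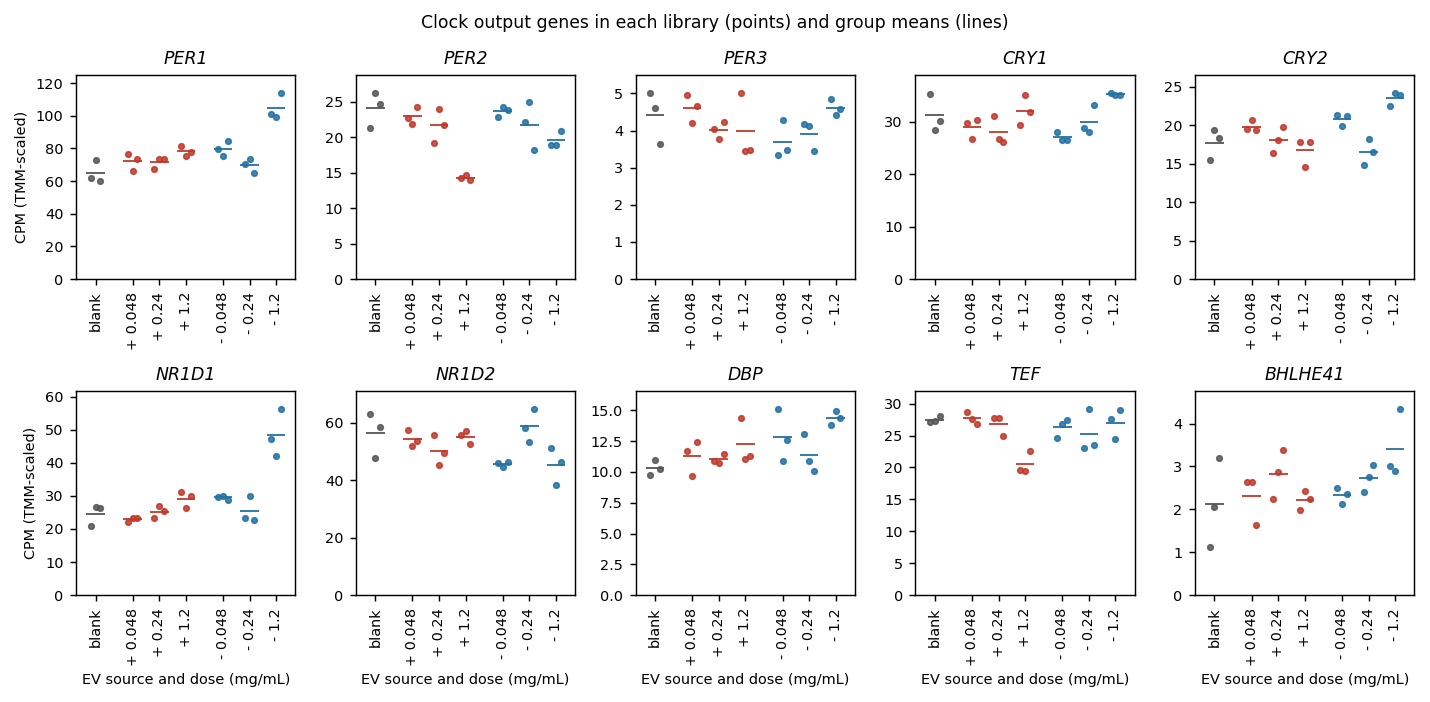
Level of each gene in every library, in TMM-scaled CPM on a linear axis from 0, by vesicle source (HCC+ red, HCC- blue, blank grey) and dose; points are libraries and lines are means of 3. PER2 and TEF have their lowest libraries at 1.2 mg/mL of HCC+ vesicles, and PER1, CRY2 and NR1D1 have their highest at 1.2 mg/mL of HCC- vesicles.

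At 1.2 mg/mL HCC- vesicles changed NR1D1, PER1 and 5 other members, and HCC+ vesicles changed PER2, TEF and PER1. With HCC- vesicles 5 members rose against blank (PER1, CRY2, NR1D1, DBP and BHLHE41) where 24.8% of all genes rose, 2 fell (PER2 and NR1D2) where 28.5% fell, and 3 did not pass the test. That is 7 of 10 called against 53.3% of all genes, and 5 of 10 had libraries that did not overlap those of blank against 56.3%. With HCC+ vesicles 1 member rose (PER1) where 15.6% of all genes rose, 2 fell (PER2 and TEF) where 17.4% fell, and 7 did not pass. That is 3 of 10 against 33%, and 4 of 10 did not overlap blank against 39.9%. With HCC+ both shares were near those of all genes. With HCC- the share called was above that of all genes and the share without overlap was below it. The median size of change, without sign, was 0.36 over the members and 0.47 over all tested genes for HCC-, and 0.20 against 0.29 for HCC+, on the log2 scale. Between the sources at 1.2 mg/mL, 1 member was higher with HCC+ (NR1D2) against 22.6% of all genes, 6 were lower (PER1, PER2, CRY2, NR1D1, TEF and BHLHE41) against 12.7%, and 3 did not pass. That is 7 of 10 against 35.3%, and 8 of 10 had no overlap between the sources against 46.6%. In that comparison the members' median difference was -0.41 and that of all tested genes 0.01, with a median size of 0.41 against 0.30. The comparisons of both sources with blank share the blank libraries, so the 2 sets of values are given side by side only.

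**Figure D2:**
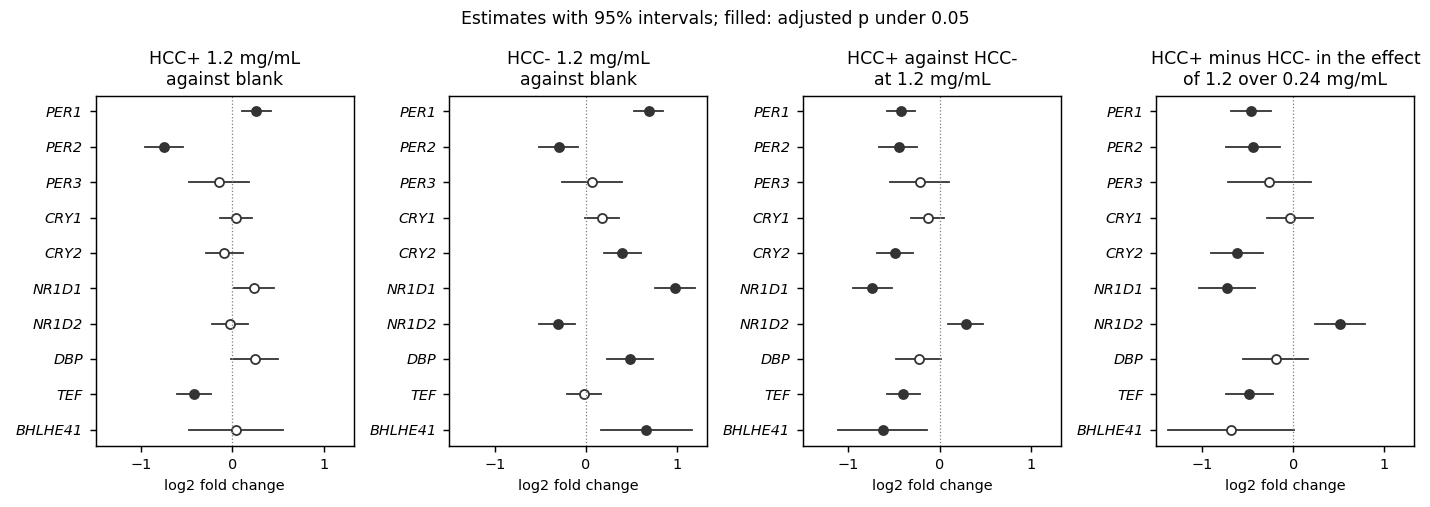
Log2 fold change of each gene with its 95% interval from edgeR in 4 comparisons; filled points have an adjusted p under 0.05. NR1D1 has the largest rise with HCC- vesicles (0.98) and PER2 the largest fall with HCC+ vesicles (-0.75).

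PER1 rose and PER2 fell with both sources at 1.2 mg/mL. PER1 (chr17:8140472-8156506, minus strand), a repressor of CLOCK and BMAL1 that also responds acutely to outside signals, was at 62.0, 73.0 and 60.2 CPM in the blank libraries. It was at 81.3, 75.6 and 77.8 CPM with HCC+ vesicles at 1.2 mg/mL and at 101, 99.2 and 114 CPM with HCC- vesicles. No library of one of these 3 groups overlapped those of another. The log2 fold change over blank was 0.26 ± 0.08 (SE; adjusted p = 0.00712, edgeR) with HCC+ and 0.69 ± 0.08 (adjusted p = 4.42e-09) with HCC-, a 1.61-fold rise. HCC+ was lower than HCC- by 0.42 (95% interval of the difference -0.58 to -0.27, adjusted p = 4.61e-05). The rise with HCC+ was not called when blank replicate 3 was left out (0.21, adjusted p = 0.0654) or when trends with GC content and length were removed (0.04); the rise with HCC- was called in every alternative run, from 0.50 to 0.97.

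PER2 (chr2:238244044-238290102, minus strand), the period protein with which PER1 shares its repressor role, went down. Its blank libraries were at 21.3, 26.2 and 24.7 CPM. HCC+ vesicles at 1.2 mg/mL gave 14.2, 14.7 and 13.9 CPM, below every other library of the study, and HCC- vesicles gave 18.9, 18.9 and 20.9 CPM, between the blank and the HCC+ libraries. PER2 fell by 0.75 ± 0.10 on the log2 scale with HCC+ (adjusted p = 9.99e-07, edgeR), to 0.593 of the blank level. With HCC- it fell by 0.30 ± 0.10 (adjusted p = 0.013). The difference between the sources was -0.45 (95% interval -0.66 to -0.25, adjusted p = 0.000672). The fall with HCC+ held in every alternative run (-0.83 to -0.63). The fall with HCC- was not called without HCC- replicate 1, HCC- replicate 2 or blank replicate 2, and came to -0.02 with total count scaling, whose median gene lies at 0.332.

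PER3 (chr1:7784320-7845177, plus strand), the third period gene, was low, with 4147 counts over all 21 libraries. It was at 3.64 to 5.01 CPM in blank, 3.46 to 5.00 with HCC+ and 4.43 to 4.86 with HCC- at 1.2 mg/mL, and all 3 ranges overlapped. Its estimates were -0.15 (95% interval -0.48 to 0.18) and 0.07 (-0.26 to 0.40), and neither passed the test. PER3 shares 868 exon bases, 10.72% of its exons, with UTS2 on the opposite strand, and whether the counts were made by strand is not given in the sources used here. UTS2, with 2181 counts over all libraries, was at -0.31 with HCC+ (not called). It fell by 0.90 ± 0.26 with HCC- at 1.2 mg/mL (adjusted p = 0.00423, edgeR), and the part of its reads in the PER3 values was not tested.

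Of the cryptochromes, which bind and inhibit CLOCK and BMAL1 together with the period proteins, CRY2 differed between the sources under every setting run and CRY1 under some. CRY2 (chr11:45847118-45883248, plus strand) was at 15.5, 19.4 and 18.3 CPM in blank, 17.9, 14.6 and 17.8 with HCC+ and 22.5, 24.2 and 23.9 with HCC- at 1.2 mg/mL. The HCC- libraries lay above all others of the study, while HCC+ and blank overlapped. CRY2 rose by 0.40 ± 0.10 on the log2 scale with HCC- (adjusted p = 0.000928, edgeR), and the estimate with HCC+ was -0.09 (95% interval -0.29 to 0.12), or -0.21 and called (adjusted p = 0.0359) with trends in GC content and length removed. HCC+ was lower than HCC- by 0.49 ± 0.10 (adjusted p = 0.000195). CRY1 (chr12:106991364-107093549, minus strand) was at 28.4 to 35.3 CPM in blank, 29.4 to 35.1 with HCC+ and 35.2 to 35.5 with HCC-. No CRY1 estimate at 1.2 mg/mL passed the test: 0.04 against blank with HCC+, 0.17 with HCC- (adjusted p = 0.104) and -0.13 between the sources. CRY1 has the most AT-rich transcript of the list, at 37.2% GC. With GC and length trends removed CRY1 was called, and its rise with HCC- was 0.60 (adjusted p = 1.86e-09) and that with HCC+ 0.21 (adjusted p = 0.0177), and HCC+ was lower than HCC- by 0.39 (adjusted p = 1.95e-05). With total count scaling CRY1 was also called with HCC- (0.46, adjusted p = 7.28e-05) and between the sources (-0.30, adjusted p = 0.00978), and without blank replicate 1 with HCC- (0.26, adjusted p = 0.0258).

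NR1D1 made the largest change. NR1D1 (chr17:40092793-40100589, minus strand), the haem-binding receptor REV-ERB alpha, was at 20.8, 26.6 and 26.3 CPM in blank and at 31.3, 26.2 and 29.8 with HCC+ at 1.2 mg/mL, with 1 HCC+ library inside the blank range. HCC- vesicles gave 47.2, 42.0 and 56.1 CPM, above every other library. NR1D1 rose by 0.98 ± 0.11 on the log2 scale, 1.97-fold, with HCC- (adjusted p = 3.64e-09, edgeR). The estimate with HCC+ was 0.24 ± 0.11 (adjusted p = 0.0862), and the sources differed by -0.74 (95% interval -0.95 to -0.52, adjusted p = 1.78e-06). The rise with HCC- (0.87 to 1.26) and the difference between the sources were called in every alternative run. The HCC+ estimate was called with total count scaling (0.36, adjusted p = 0.0105), without the filter on low counts (0.25) and without HCC+ replicate 2 (0.31).

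NR1D1 overlaps THRA, the thyroid hormone receptor alpha gene, tail to tail on the opposite strand over 263 exon bases, 10.0% of its exons. THRA rose too, by 0.51 ± 0.08 with HCC+ and by 0.80 ± 0.08 with HCC- (adjusted p = 1.02e-05 and 8.34e-10, edgeR). If the counts were not made by strand, reads in the shared bases cannot be assigned to either gene. THRA had the larger estimate of the pair with HCC+, and NR1D1 with HCC-. The part of THRA reads in the NR1D1 values was not tested.

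NR1D2 (chr3:23945286-23980617, plus strand), REV-ERB beta, did not follow its relative. It was at 63.0, 47.7 and 58.5 CPM in blank, 55.9, 57.3 and 52.5 with HCC+ and 51.1, 38.4 and 46.3 with HCC-. The HCC- libraries ran lower but overlapped the blank ones. NR1D2 fell by 0.31 ± 0.10 on the log2 scale with HCC- (adjusted p = 0.0066, edgeR) and stood at -0.03 (95% interval -0.22 to 0.17) with HCC+. HCC+ was higher than HCC- by 0.29 ± 0.10 (adjusted p = 0.0191). The NR1D2 calls depend on the processing: its transcript is 38.5% GC, and with GC and length trends removed the estimate with HCC- was 0.04 and the difference between the sources 0.07, neither called. Against blank with HCC- it was also not called with total count scaling, without HCC- replicate 2 or without blank replicate 1. The difference between the sources was further not called with total count scaling (0.12), with only the groups compared (0.25), without HCC+ replicate 2 (0.25) or without HCC- replicate 2 (0.17).

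The D-box activators did not change together: DBP rose with HCC- vesicles and TEF fell with HCC+ vesicles. DBP (chr19:48630030-48637438, minus strand), often the clock output with the widest daily swing, was at 9.71, 10.9 and 10.3 CPM in blank, 14.4, 11.1 and 11.3 with HCC+ and 13.8, 15.0 and 14.4 with HCC- at 1.2 mg/mL. Both treated groups lay above the blank libraries. DBP rose by 0.48 ± 0.12 on the log2 scale with HCC- (adjusted p = 0.00154, edgeR), while the estimate with HCC+, 0.25 ± 0.13, did not pass (adjusted p = 0.134). The difference between the sources was -0.23 (95% interval -0.48 to 0.01) and did not pass. With total count scaling DBP was called with HCC+ (0.37, adjusted p = 0.023) and between the sources (-0.39, adjusted p = 0.0118), and without HCC+ replicate 1 between the sources (-0.36, adjusted p = 0.0313). DBP shares 661 exon bases, 10.1% of its exons, with SPHK2 on the opposite strand. SPHK2 rose by 0.44 ± 0.13 with HCC+ and 1.19 ± 0.13 with HCC-, and the part of its reads in the DBP values was not tested. The SPHK2 rise with HCC+ was not called without HCC+ replicate 1 or blank replicate 3.

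TEF (chr22:41367333-41399326, plus strand), a related activator with a flatter rhythm in most tissues, was at 27.2, 27.3 and 28.0 CPM in blank and 27.5, 24.5 and 28.98 with HCC-. HCC+ vesicles gave 19.6, 19.5 and 22.5 CPM, the 3 lowest TEF libraries of the study. TEF fell by 0.42 ± 0.09 on the log2 scale with HCC+ (adjusted p = 0.00054, edgeR), to 0.747 of the blank level. With HCC- its estimate was -0.02 (95% interval -0.21 to 0.16), and HCC+ was lower than HCC- by 0.40 ± 0.09 (adjusted p = 0.000825). The fall with HCC+ and the difference between the sources were called in every alternative run. Against blank, the HCC- estimate turned to 0.26 (adjusted p = 0.019) with total count scaling, below the median gene of that scaling at 0.332.

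BHLHE41 (chr12:26120030-26125037, minus strand), a repressor of E-box genes, had few counts (2611 over all libraries) and the widest errors of the list. It was at 1.12, 2.07 and 3.19 CPM in blank, 1.98, 2.43 and 2.25 with HCC+ and 3.01, 2.91 and 4.33 with HCC- at 1.2 mg/mL. The blank libraries ran from 1.12 to 3.19 CPM. Inside that range lay 2 HCC- libraries, and the highest, at 4.33 CPM, lay above it. The log2 fold change was 0.66 ± 0.25 with HCC- (adjusted p = 0.0238, edgeR) and 0.04 ± 0.25 with HCC+, and the sources differed by -0.62 ± 0.24 (adjusted p = 0.0411). Leaving out HCC- replicate 3, blank replicate 1 or blank replicate 2 ended the first call (0.37 to 1.06 over the 6 fits). Leaving out any HCC+ library or HCC- replicate 3 ended the last.

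**Figure D3:**
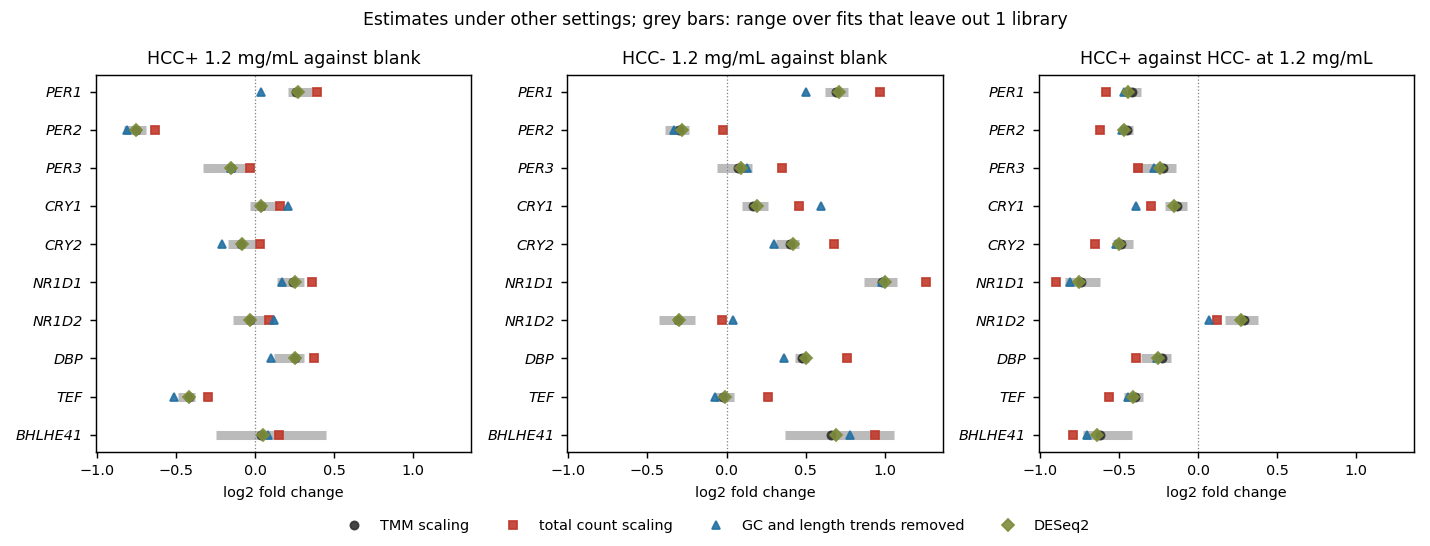
Log2 fold change of each gene under TMM scaling, total count scaling, removal of GC and length trends, and DESeq2, with grey bars for the range over fits that leave out 1 library. NR1D1 with HCC- stays near 1 in all of them (0.87 to 1.26), while NR1D2 with HCC- moves from -0.31 to 0.04 when GC and length trends are removed.

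For most members the difference between the sources was not the same at 1.2 and at 0.24 mg/mL. The test of this interaction compares the effect of 1.2 over 0.24 mg/mL between HCC+ and HCC-. It called 6 of 10 members against 21.3% of all genes, with 5 lower (6.26% of all genes) and 1 higher with HCC+ (15.1%). The split over all genes depends on the scaling, with 2947 higher and 1225 lower with TMM factors, 1440 and 2369 with total counts, and 2596 and 2375 with GC content and length trends removed. NR1D1 had the largest value, -0.73 ± 0.15 on the log2 scale (adjusted p = 0.000654, edgeR), followed by CRY2 at -0.62 ± 0.14 (adjusted p = 0.00161). NR1D2 was the member with a positive value, 0.51 ± 0.13 (adjusted p = 0.00611), which was 0.27 (adjusted p = 0.018) with GC and length trends removed and 0.36, not called, with total count scaling. CRY1 was called as well with those trends removed (-0.32, adjusted p = 0.0146). PER1 (-0.46), TEF (-0.48) and PER2 (-0.44, adjusted p = 0.0242) were also called. The PER2 call was lost in 4 of the 12 fits that left out 1 library: HCC+ 1.2 replicate 3, HCC+ 0.24 replicate 2, HCC- 1.2 replicate 3 and HCC- 0.24 replicate 3. Within a source, HCC+ at 1.2 against 0.24 mg/mL lowered PER2 (-0.60) and TEF (-0.39) and called no other member, 2 of 10 against 29.2% of all genes (13.7% up and 15.5% down). CRY1 was called up in this step with total count scaling (0.30, adjusted p = 0.0103), with GC and length trends removed (0.30, adjusted p = 0.000874) and without HCC+ 0.24 replicate 1 (0.28), PER1 (0.24) and NR1D1 (0.32) with total counts, and NR1D2 (0.22) with the trends removed. Total counts turned the split over all genes to 4072 up and 1794 down. The same step of HCC- raised PER1 (0.59), CRY1 (0.23), CRY2 (0.51), NR1D1 (0.94) and DBP (0.35) and lowered NR1D2 (-0.37), 6 of 10 against 51.8% of all genes (23.9% up and 28% down), a split that turned to 7742 up and 3110 down with total counts and 6178 and 4625 with the trends removed. Of these, the CRY1 call was lost without HCC- 1.2 replicate 1, HCC- 0.24 replicate 1 or HCC- 0.24 replicate 2, the DBP call without HCC- 0.24 replicate 2 or 3, and the NR1D2 call under total count scaling and with GC and length trends removed. In this HCC- step total counts also called PER3 (0.50, adjusted p = 0.00856, edgeR), TEF (0.36, adjusted p = 0.00161) and BHLHE41 (0.58, adjusted p = 0.0387) up. The median gene of that step lies at 0.299 with total counts.

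At the lower doses members were called against blank only with HCC- vesicles at 0.048 mg/mL. With 0.24 mg/mL of either source and 0.048 mg/mL of HCC+ vesicles 0 of 10 members were called against blank by edgeR, 0 had an unadjusted p under 0.05 and DESeq2 called 0. Among all genes 0.00511%, 0% and 0% were called in the comparisons of HCC+ 0.24, HCC- 0.24 and HCC+ 0.048 mg/mL with blank, and 6.1%, 4.63% and 4.83% had an unadjusted p under 0.05. Between the sources at 0.24 mg/mL 0 members were called by either tool and 1 (NR1D2) had an unadjusted p under 0.05, against 0% of genes called and 2.36% with such a p. With 0.048 mg/mL of HCC- vesicles, below the dose of 0.24 mg/mL at which no gene was called, 2 of 10 members were called against 16.4% of all genes (8.28% up and 8.16% down), and 5 of 10 did not overlap blank against 27.6%. PER1 rose by 0.29 ± 0.08 (75.4 to 84.5 CPM; adjusted p = 0.0129, edgeR) and NR1D2 fell by 0.31 ± 0.10 (44.5 to 46.4 CPM; adjusted p = 0.0308). Both calls were lost with GC and length trends removed (0.03 and -0.05), and over the fits that left out 1 library the number of members called ran from 0 to 5. It was 0 without blank replicate 1, blank replicate 3 or HCC- replicate 3, and 5 without blank replicate 2. Genome-wide the 3216 calls came to 105 with these trends removed, 1 without blank replicate 1, 12 without blank replicate 3, 706 to 1830 without 1 of the HCC- libraries and 5726 without blank replicate 2. Between the sources at 0.048 mg/mL 0 members were called with edgeR and 1 with DESeq2, against 3.54% of all genes (1.08% higher and 2.46% lower with HCC+, a split of 212 and 481 genes that was 396 and 282 with total counts), and 2 had an unadjusted p under 0.05 against 23.4%. NR1D1 came nearest, lower by 0.37 ± 0.11 with HCC+ (adjusted p = 0.0512).

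Ratios within a library compare related genes without a scaling factor between libraries, but they keep any trend with GC content or length. The pairs were chosen with the data known, and 3 libraries against 3 cannot give an exact permutation p under 0.1 (2-sided), which becomes 0.15 after adjustment over the 24 tests made. PER1 over PER2, as the log2 ratio of CPM per kb, was 1.41 ± 0.13 (SD, n = 3) in blank cultures. It was 2.43 ± 0.08 with HCC+ and 2.39 ± 0.03 with HCC- at 1.2 mg/mL. The ratio was thus higher than in blank by 1.02 and 0.98 (exact p = 0.1 each, the smallest possible). With HCC+ the larger estimate behind it was that of PER2 (-0.75 against 0.26 for PER1), and with HCC- that of PER1 (0.69 against -0.30 for PER2). The sources differed in this ratio by 0.03 (exact p = 0.5). In the lower-dose groups the means ran from 1.63 to 1.73, and their lowest library, at 1.53, was above the highest blank library at 1.52.

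NR1D1 over NR1D2 separated the sources instead. It was -0.06 ± 0.38 in blank, 0.21 ± 0.17 with HCC+ and 1.24 ± 0.20 with HCC- at 1.2 mg/mL. HCC+ and HCC- libraries did not overlap and differed by -1.02 (exact p = 0.1, the smallest possible). HCC+ and blank overlapped and differed by 0.27 (exact p = 0.2). HCC- at 0.048 mg/mL lay above blank by 0.57 (exact p = 0.1). The transcripts of NR1D1 and NR1D2 are 59.5% and 38.5% GC. With GC and length trends removed their fitted estimates against blank were 0.98 and 0.04 with HCC- and 0.17 and 0.12 with HCC+ at 1.2 mg/mL. Their source differences were then -0.81 and 0.07, and at 0.048 mg/mL of HCC- the estimates were 0.04 and -0.05. DBP over TEF went from -1.89 ± 0.09 in blank to -1.23 ± 0.28 with HCC+ and -1.38 ± 0.17 with HCC-, with no overlap with blank (differences 0.67 and 0.51, exact p = 0.1 each). CRY2 over CRY1 was -1.19 ± 0.33 in blank, -1.32 ± 0.28 with HCC+ and -0.96 ± 0.06 with HCC-, and of the 3 comparisons at 1.2 mg/mL the one between the sources was without overlap (difference -0.36, exact p = 0.1). The transcripts of this pair are 57.0% and 37.2% GC. With GC and length trends removed the fitted HCC- estimates were 0.30 for CRY2 and 0.60 for CRY1, so the direction of the ratio against blank turned, and the source differences were -0.52 and -0.39. BHLHE41 over BHLHE40 (DEC1, its close relative) was -5.12 ± 0.60 in blank, so BHLHE40 was by far the more abundant, and -3.40 ± 0.29 with HCC- at 1.2 mg/mL, above all blank libraries (difference 1.72, exact p = 0.1). NR1D1 over its target BMAL1 went from 1.25 ± 0.25 in blank to 2.19 ± 0.19 with HCC- and stood at 1.30 ± 0.16 with HCC+.

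**Figure D4:**
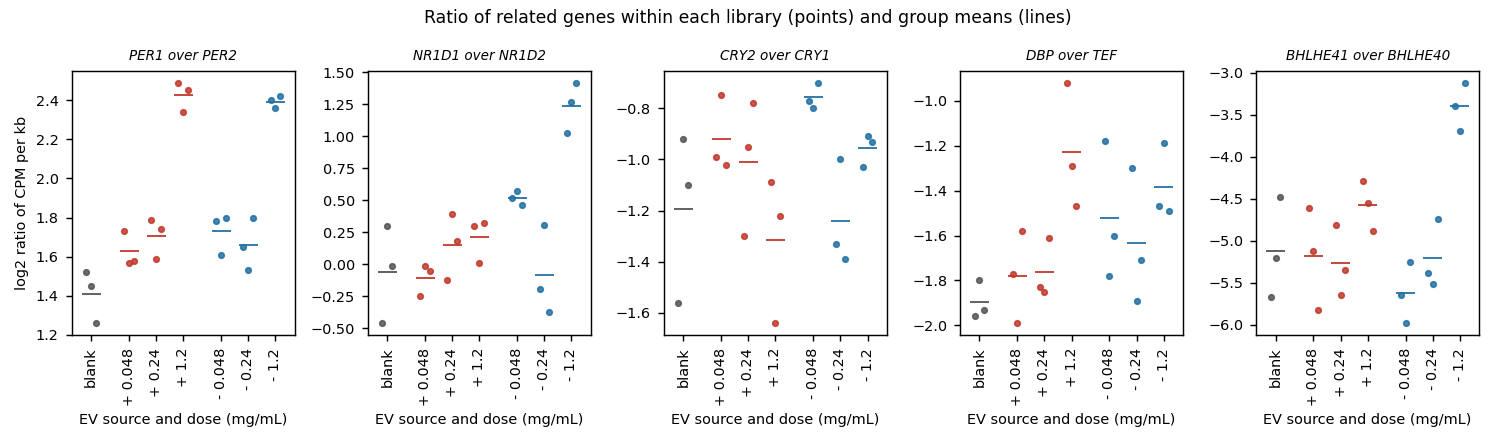
Log2 ratio of CPM per kb between related genes in each library (points) and its group mean (lines), by vesicle source (HCC+ red, HCC- blue, blank grey) and dose; the panels have separate axes that do not start at 0. PER1 over PER2 reaches 2.34 to 2.49 with HCC+ and 2.36 to 2.42 with HCC- at 1.2 mg/mL, and NR1D1 over NR1D2 reaches 1.03 to 1.42 with HCC-, with no library of another group above 0.57.

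The activators that drive these genes had smaller estimates than BMAL2. CLOCK, the histone acetyltransferase partner of the pair, did not pass the test with either source at 1.2 mg/mL (0.15 with HCC+, 0.05 with HCC-), nor did its relative NPAS2 (-0.06 and -0.13). With total count scaling CLOCK was called with both (0.26 and 0.33), and NPAS2 with HCC- turned to 0.16, not called, where the median genes lie at 0.133 and 0.332. BMAL1, the partner that NR1D1 represses, rose by 0.19 with HCC+ (adjusted p = 0.0439, edgeR), a call lost in 5 of the 6 fits without 1 library (all but that without HCC+ replicate 1), and stood at 0.03 with HCC-. Beside the rise of NR1D1 with HCC-, BMAL1 was at 26.9 ± 0.396 CPM against 26.3 ± 1.12 in blank (SD, n = 3). BMAL2, the BMAL1 paralogue, fell with both sources, by 0.45 with HCC+ and 1.22 with HCC- (adjusted p = 7.71e-15), from 54.8 ± 3.09 CPM in blank to 40.2 ± 1.92 and 23.6 ± 1.93. HCC+ was higher than HCC- by 0.77.

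Over the list of 20 other clock genes, of which 19 were tested and RORB had no count, 3 rose and 4 fell with HCC+ at 1.2 mg/mL, and 3 rose and 3 fell with HCC-. Between the sources 3 were higher and 3 lower with HCC+. Over all genes 33%, 53.3% and 35.3% were called in these comparisons. TIMELESS, whose protein works in replication fork protection as well as the clock, fell by 0.38 with HCC+ and 0.87 with HCC- (adjusted p = 1.06e-13). Among the kinases that phosphorylate PER proteins, CSNK1D was at 0.00 with HCC+ and rose by 0.27 with HCC-, and CSNK1E did not pass with HCC+ (-0.12) and rose by 0.23 with HCC-. The CSNK1D rise was 0.06, not called, with GC and length trends removed. GSK3B rose by 0.18 and 0.44, the first lost without HCC+ replicate 1, HCC+ replicate 2, blank replicate 2 or blank replicate 3. NFIL3, the repressor that competes with DBP and TEF for D-boxes, rose by 0.28 with HCC+ (adjusted p = 0.00287), was at 0.05 with HCC- and was higher with HCC+ by 0.24, a difference not called without HCC+ replicate 2 or HCC- replicate 3. HLF, the remaining PAR bZIP factor, was low at 1.185, 2.02 and 1.30 CPM in blank, and its fall of 0.73 with HCC+ (adjusted p = 0.0393) was lost without any 1 of the HCC+ libraries and without blank replicate 2. BHLHE40 fell by 0.94 with HCC- (adjusted p = 0.0149; not called without HCC- replicate 1 or with total count scaling), and its -0.34 with HCC+ did not pass. RORA and CIART were each under 1 CPM in blank and had no call.

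**Figure D5:**
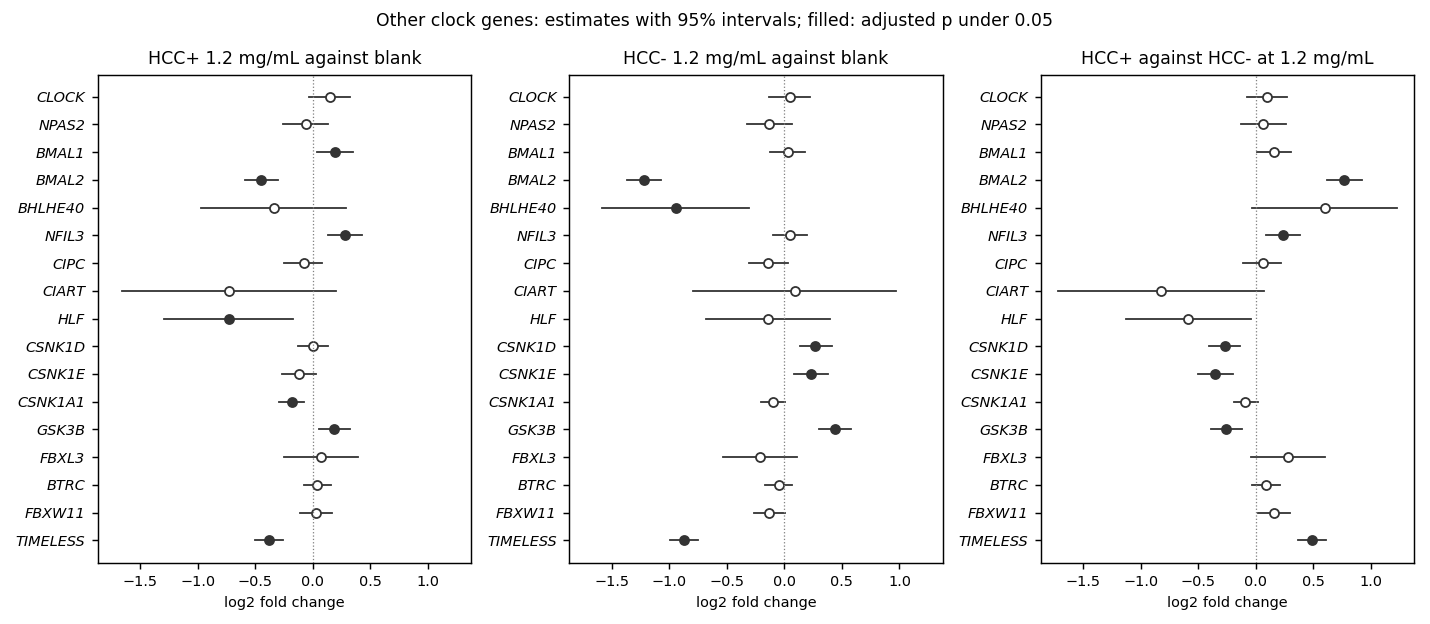
Log2 fold change with its 95% interval from edgeR for 17 clock genes outside the list of 10, in 3 comparisons; filled points have an adjusted p under 0.05, and 2 tested genes with few counts, among them RORA, are not drawn. BMAL2 (-0.45 and -1.22) and TIMELESS (-0.38 and -0.87) fall with both sources, and CLOCK and NPAS2 lie near 0.

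Genes that the clock is known to drive did not follow a single direction. Of 8 listed, 7 were tested, with 2 up and 4 down at 1.2 mg/mL of HCC+ as well as of HCC-, where 15.6% of all genes were up and 17.4% down with HCC+ and 24.8% and 28.5% with HCC-. WEE1, the mitotic entry kinase with E-boxes in its promoter, fell by 0.23 with HCC+ and 0.86 with HCC-. NAMPT, the NAD salvage enzyme, fell by 0.29 and 0.88, and KLF10 by 0.57 and 0.84. USP2, a deubiquitinase, rose by 0.75 and 0.72 and ALAS1, the first enzyme of haem synthesis, by 0.36 and 0.37. Of these genes, 3 were higher with HCC+ than HCC-, WEE1 by 0.63, NAMPT by 0.59 and KLF10 by 0.26.

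The signals known to induce PER1 from outside the loop were read through their target genes. Of 7 glucocorticoid targets tested, 3 rose and 1 fell with HCC+ and 4 rose and 1 fell with HCC-, against 33% and 53.3% of all genes called. They did not move as a set: SGK1 rose by 1.19 and 1.81, TSC22D3 was at -0.07 with HCC+ and rose by 1.35 with HCC-, and FKBP5 fell by 0.49 and 1.19. With HCC+ against HCC-, 3 of the 7 were lower, among them TSC22D3 at -1.42 and SGK1 at -0.62. FKBP5, at 0.70, was the 1 that was higher, where 12.7% of all genes were lower and 22.6% higher. Of 10 CREB and immediate early targets, 2 rose and 1 fell with HCC+ and 5 rose and 2 fell with HCC-, against the same 33% and 53.3%. NR4A2 rose by 0.93 and 1.53, FOSB was at 0.28 with HCC+ (not called) and rose by 2.05 with HCC-, ATF3 was at -0.09 (not called) and rose by 0.83, and EGR1 fell by 1.34 and 2.17. Between the sources 6 of the 10 were lower with HCC+ and 1 was higher, where 12.7% of all genes were lower and 22.6% higher, with FOSB at -1.77 and ATF3 at -0.93. What part these signals have in the PER1 levels was not tested.

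Transcripts of other cell types and nuclear RNAs moved with the same 1.2 mg/mL groups. NEAT1, a nuclear long non-coding RNA, rose by 0.96 with HCC+ and 1.71 with HCC-, and KCNQ1OT1 by 0.74 and 1.60, while MALAT1 did not pass (0.35 and 0.31). Leukocyte markers summed to 1.35 to 1.63 CPM in blank, 3.36 to 4.70 with HCC+ and 5.30 to 7.12 with HCC-. Of the 8, 4 were tested and all 4 rose with HCC+, where 15.6% of all genes rose. With HCC- 3 of the 4 rose, where 24.8% of all genes did, and 3 of the 8 had no count in blank. Markers near 0 in blank can pass the filter on low counts through the 1.2 mg/mL libraries alone, so these counts are descriptions only. Endothelial markers went from 0.640 to 0.846 CPM in blank to 2.90 to 3.67 and 5.86 to 7.88. Of these, 2 of 3 tested were called up in each (PECAM1 and VWF), against the same 15.6% and 24.8% of all genes. KDR was at 0.83 with HCC+ and -0.72 with HCC-, neither called. Fibroblast markers, of which only COL1A1 was tested and rose (0.75 and 0.99), went from 14.3 to 17.7 CPM to 21.3 to 30.8 and 28.6 to 34.6. Erythroid markers summed to at most 0.968 CPM in any library, hepatocyte markers to at most 3.76 and platelet markers to at most 5.52. Erythroid sums were 0.07 to 0.20 CPM in blank, 0.39 to 0.94 with HCC+ and 0.37 to 0.97 with HCC-. SLC4A1 was at 1.80 (not called) and rose by 2.74. Hepatocyte sums were 1.86 to 2.29, 3.075 to 3.52 and 2.19 to 3.25. SERPINA1 rose by 0.58 and was at 0.26 (not called). Platelet sums were 4.84 to 5.29, 4.55 to 5.52 and 3.12 to 4.76. GP1BA was at -0.33 (not called) and fell to -0.76. The part of all these transcripts in the clock gene values was not tested.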

How the data were processed

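Poly(A) RNA of HCT-116 cells was sequenced in 21 libraries, 3 in each of 7 groups. Per the submitters' processing notes, reads were trimmed with cutadapt 3.4, aligned to GRCh38 with HISAT2 2.2.1 and counted with featureCounts 2.0.1. The authors deposited read counts, not normalized, for 65065 Ensembl genes, with an exon length per gene that served for CPM per kb. Which annotation was counted, and whether strand or multiple hits were considered, is not given in the sources used here. Library totals of 31219343 to 64012757 counts set the precision of low genes.

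The members and all gene lists were chosen with earlier results of these data known. All libraries entered 1 model with 7 group means and 12 contrasts in edgeR 4.0.16 (R 4.3.3), with TMM factors (0.936 to 1.165), filterByExpr, robust estimates of dispersion, and its quasi-likelihood F test (Benjamini-Hochberg adjustment over 19556 genes, 14 residual degrees of freedom). Standard errors were obtained by dividing a log2 fold change by the square root of F. CPM are TMM-scaled. GC content was taken from the longest transcript of each gene in the reference annotation, known for 99.7% of tested genes. Trends with GC content and length were removed by per-library offsets (natural splines with 5 degrees of freedom, set on 12341 genes). Other alternatives were RLE factors, total counts, no filter, DESeq2 1.42.0, a replicate block, only the groups compared and leaving out each library. The scripts were tested on simulated data. The text names all members, 11 further genes fixed by name, and up to 3 called genes with the smallest p per list and comparison. A gene named in 1 comparison is also given in the others beside it. SPHK2, UTS2, NEAT1, KCNQ1OT1 and MALAT1 fall outside this rule and were named after their values were seen. Some markers of cell types are named as well. The replicate numbers were not used to pair samples, since 1 of 63 same-numbered pairs had a correlation of deviations over 0.1. No libraries of a group agreed within sampling noise, with a chi-square per gene of at least 5.03. Promoters are RefSeq windows of GRCh38.p14. Some results on listed genes are not reported here.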

Additional observations from a re-analysis of the deposited data

Results flagged for a closer look

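6 results stand out because the effect of 1.2 over 0.24 mg/mL differed between the vesicle sources in a test of that difference (edgeR, 3 libraries a group). On the log2 scale, HCC+ minus HCC-, these were NR1D1 at -0.73, CRY2 at -0.62, TEF at -0.48, PER1 at -0.46 and PER2 at -0.44, with NR1D2 alone among the 6 at a positive 0.51. TEF and PER2 had a fall with HCC+ behind the value (-0.39 and -0.60), and PER1, CRY2 and NR1D1 a rise with HCC- (0.59, 0.51 and 0.94). Among all tested genes 21.3% were called in this test, 15.1% higher and 6.26% lower with HCC+ (2947 and 1225 genes). With total count scaling the split was 1440 and 2369, and NR1D2 was 0.36 and not called. With GC and length trends removed it was 2596 and 2375, and NR1D2 was 0.27.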

How the results depend on the processing

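Each of 120 member values was recomputed under the other settings, 1620 values in all. In 1540 no call changed, though the sign of an uncalled value turned in 68 of them. In 43 a call was lost, in 35 one was gained, and in 2 the sign turned while a call was lost or gained. These 2 values were in the comparison of HCC- 1.2 mg/mL with blank. NR1D2 went from -0.31, called, to 0.04, not called, with GC and length trends removed. TEF went from -0.02, not called, to 0.26, called, with total count scaling. For other named genes no call changed in 1106 of 1220 values (33 of them uncalled with a turned sign), 89 lost one, 25 gained one and 0 turned sign with a change of call. The number of members called moved by over 1.5 times as follows, and the cause was not tested. For HCC+ 1.2 mg/mL against blank it was 3, and 5 with total count scaling. For HCC- 0.048 mg/mL against blank it was 2, and 0 with GC and length trends removed. For HCC+ against HCC- at 0.048 mg/mL it was 0, and 1 with RLE factors, 2 without the filter, 2 with only the groups compared and 1 with DESeq2. For HCC+ 1.2 against 0.24 mg/mL it was 2, and 5 with total count scaling and 4 with GC and length trends removed. Leaving out 1 library gave 2 to 4 for HCC+ 1.2 mg/mL against blank, 5 to 7 for HCC- 1.2 mg/mL against blank and for the sources at 1.2 mg/mL, and 0 to 5 for HCC- 0.048 mg/mL. It gave 2 to 3 and 4 to 6 for 1.2 against 0.24 mg/mL of HCC+ and HCC-, 5 to 6 for the interaction, and 0 in the other comparisons. With the replicate block the count at 0.048 mg/mL between the sources was 1 (NR1D1), and the block changed no other of the 120 member calls; over all genes it moved the calls there from 693 to 1091. Those 693 were 50 with GC and length trends removed, 1483 without the filter, 3641 with only the groups compared, 2117 with DESeq2 and 2 to 258 without HCC+ replicate 1, 2 or 3 or HCC- replicate 1 or 2. The 3216 genes of HCC- 0.048 mg/mL against blank were 105 with GC and length trends removed and 1976 with only the groups compared. In the 4 comparisons with at most 1 gene called, the settings that kept all libraries called 0 to 25. The numbers do not pair the libraries: correlations of same-numbered pairs ran from -0.10 to 0.11, and 9 of 21 libraries were closest to their own number. BHLHE41 and PER3, with 2611 and 4147 counts over all libraries, are limited by depth.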
